A study of Mus musculus with 6 samples.

Results

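Csf1r, Csf1 and Il34 are 3 of the 31054 features in a single-cell expression matrix of mouse cells, and were found by their gene symbols. CSF1R is the receptor tyrosine kinase through which macrophages, monocytes and their relatives receive survival and growth signals, and CSF1 and IL-34 are its ligands, which bind the same receptor although their sequences are unrelated. Ligand binding pairs the receptor chains, and the phosphorylated receptor recruits adaptors and kinases that drive survival, proliferation and differentiation. CSF1 is made as secreted and membrane-bound forms by many mesenchymal and endothelial cells. IL-34 is best known from neurons and keratinocytes, and microglia and the Langerhans cells of the skin depend on it. CSF1 acts together with RANKL to form osteoclasts, which resorb bone.

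The series concerns the embryonic precursors of osteoclasts, and its labels list 6 samples in 3 groups of 2. One group is of Cx3cr1CreER; R26tdTomato embryos, whose mothers received 4-hydroxytamoxifen at embryonic day (E) 9.5. Another is of Csf1r-Mer-iCre-Mer; Csf1r-EGFP; R26tdTomato embryos with the drug at E8.5, and the last is wildtype total bone marrow of C57BL6 mice aged 2 months. The labels describe the embryonic cells as of the macrophage and monocyte lineages, taken from the E14.5 body, and name no other embryonic cell type. The Cre of each driver line acts in cells that use the Cx3cr1 or the Csf1r promoter, and the Csf1r line carries an EGFP under that promoter too. Whether transcripts of these transgenes were counted towards Csf1r was not tested.

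The matrix holds 39048 cell barcodes that carry a number from 1 to 4, called libraries 1 to 4 here. No label ties these numbers to the 6 samples, so the matrix was treated as 1 pooled sample and the groups were not compared. The matrix is named after the Cx3cr1 and Csf1r lines and not after the marrow. Cells with a transcript of the tdTomato reporter occurred in every library, whereas the marrow is labelled wildtype. Whether any library holds marrow was not tested. No test was run over the libraries either, since the samples behind them are unknown. Each value is therefore given for the pooled cells with a 95% interval that covers counting error only, and for each library where cells allow. The libraries held between 106500620 and 198754246 unique molecular identifiers (UMIs, each standing for 1 captured transcript). Cells were kept with at least 1000 UMIs, at least 500 genes and at most 10% mitochondrial UMIs, which left 34587, with a median of 13077 to 14956 UMIs per library. Among the barcode sequences, 761 occurred in more than 1 library.

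Cells were sorted into classes by marker genes, none of which was a member. A cell entered a class when at least 3 of its markers were high, and the microglia gate required 6 of 8. The 7 classes of main interest were macrophages (6202 cells), microglia (1224), monocytes (3980), osteoclasts (85), mesenchymal cells (847), endothelial cells (282) and neural cells (268). Kupffer cells (1183), granulocyte-monocyte progenitors (1323), dendritic cells (631), mast cells or basophils (1541) and erythroid cells (804) served as further classes. The classes carried their defining genes. P2ry12, a purine receptor of microglia, stood at 1134 CPM (UMIs per 1000000 UMIs of the class) in microglia and 42.2 in all other cells. Ctsk, the collagen-degrading protease of osteoclasts, stood at 2628 CPM in osteoclasts and 2.76 elsewhere, and Col1a1 stood at 2003 CPM in mesenchymal cells and 9.51 elsewhere. The monocyte marker Chil3 was the exception, at 0.111 CPM in monocytes. No gate was passed by 14089 cells, and 669 cells that passed gates of different compartments were set apart as mixed.

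Csf1r lies on the plus strand of chromosome 18 (GRCm38, chr18:61100598-61132149, ENSMUSG00000024621), where Hmgxb3 overlaps it on the opposite strand and Mir6983 on the same strand. Csf1 lies on the minus strand of chromosome 3 (chr3:107741048-107760469, ENSMUSG00000014599), with no overlapping gene in the annotation. Il34 lies on the minus strand of chromosome 8 (chr8:110741829-110805924, ENSMUSG00000031750), where the predicted genes Gm15894 and Gm15895 overlap it on the opposite strand. The values sum all transcripts of a gene, 6 annotated for Csf1r, 7 for Csf1 and 5 for Il34, so the secreted and membrane-bound forms of CSF1 cannot be told apart. The 3 genes were captured to very different extents. The kept cells held 308948 UMIs of Csf1r, 3111 of Csf1 and 52 of Il34.

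The receptor followed a steep order along the myeloid classes. Csf1r was highest in microglia, the macrophages of the brain, at 1775 CPM (95% Poisson interval 1754 to 1797). The libraries gave 1895, 1975, 1420 and 1629 CPM, so each library of microglia stood above each library of every other class with 50 cells in it. Macrophages, gated on genes of tissue-resident cells such as Lyve1, Mrc1 and Pf4, held 1100 CPM (1093 to 1107), with 1098, 1198, 967.6 and 1089 CPM in libraries 1 to 4. Kupffer cells, the macrophages of the liver, held 771.5 CPM (758.9 to 784.3) and ranged from 638.3 to 890.8 between libraries. The library ranges of these 3 classes did not overlap. Csf1r was 1.61 times as high in microglia as in macrophages and 1.43 times as high in macrophages as in Kupffer cells. On the log2(CPM + 10) scale, microglia exceeded macrophages by 0.69 in the pooled cells and by 0.78, 0.72, 0.55 and 0.58 in the 4 libraries.

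Circulating and progenitor cells held less. Monocytes stood at 395.9 CPM (391.4 to 400.6), with 437.5, 459.5, 315 and 364.5 CPM in the libraries, all below the lowest Kupffer cell library. Macrophages held 2.78 times the level of monocytes, a log2 difference of 1.45 in the pooled cells and of 1.31 to 1.59 between libraries. Granulocyte-monocyte progenitors, the marrow and fetal liver cells from which monocytes arise, stood at 120.9 CPM (117.5 to 124.4). Their libraries gave 171.8, 190.2, 100.2 and 120.6 CPM, each below monocytes of the same library, and libraries 3 and 4 held most of these cells. Dendritic cells, the antigen-presenting relatives of monocytes, held 276.2 CPM but split by library, with 444.9 and 480.1 in libraries 1 and 2 and 200.8 and 187.5 in libraries 3 and 4.

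The osteoclasts were at the level of monocytes, not of macrophages. Their Csf1r stood at 377.6 CPM (352.9 to 403.5), and the libraries gave 341.7, 416.6, 353 and 398.1 CPM from 16, 13, 21 and 35 cells. The interval overlapped that of monocytes and the 2 library ranges overlapped, so the order of these neighbours was not resolved. Macrophages held 2.91 times as much as osteoclasts, and the log2 difference was -1.52 pooled and lay between -1.43 and -1.66 in all 4 libraries. The 58 osteoclasts with 5 or more high markers held 395 CPM (365.4 to 426.3) and 3579 CPM of Ctsk. The other 27, with 3 or 4 high markers, held 332.1 CPM of Csf1r (288.9 to 380) with 139.4 CPM of Ctsk.

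**Figure D1:**
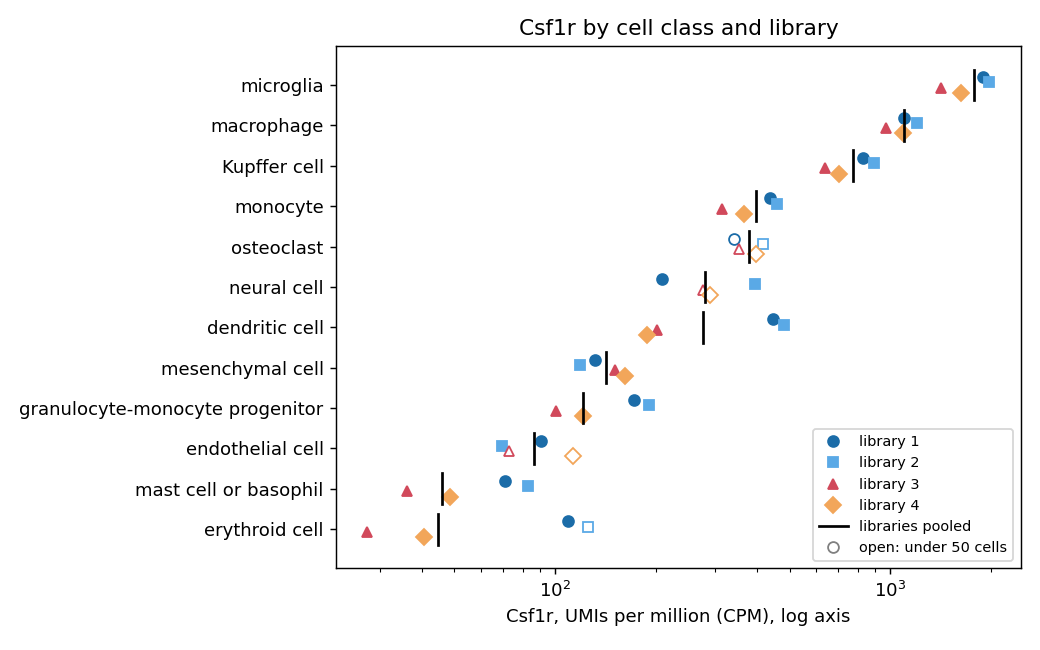
Csf1r in CPM (log axis) for 12 cell classes, with 1 point per library, open where the library held under 50 cells of the class, and a black line for the pooled cells. Microglia, macrophages and Kupffer cells occupy separate ranges, monocytes and osteoclasts share one, and libraries 1 and 2 lie right of libraries 3 and 4 in most classes.

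The level per cell moved as a whole and was not set by a few cells. When each cell was thinned to 5000 UMIs, so that depth was equal, the median macrophage held 5 Csf1r UMIs, with a 10th percentile of 2 and a 90th of 11. The median microglial cell held 9 (4 to 17) and the median Kupffer cell 4 (1 to 8). The median was 2 in monocytes (0 to 5) and 1 in osteoclasts (0 to 4). At 2000 UMIs per cell, Csf1r was detected in 96.6% of microglia (exact binomial 95% interval 95.4 to 97.5), 86.2% of macrophages (85.3 to 87.1), 75.1% of Kupffer cells and 51.6% of monocytes. The same share was 48.2% in osteoclasts (37.3 to 59.3) and 22.1% in progenitors. Erythroid and B cells, taken as the background, gave 6.995% (5.298 to 9.028) and 7.23% (3.79 to 12.3). B cells are the less certain blank, with 45.6 Csf1r UMIs per 100 of complement C1qb against 26.0 in erythroid cells. All myeloid shares named here were above that background. Without thinning, the shares were 100% in microglia, 99.1% in macrophages, 95.4% in monocytes, 98.8% in osteoclasts and 80.7% in progenitors, but 29.7% in erythroid cells too, at a median depth of 30214 UMIs against 17152 in monocytes.

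Csf1r was higher the more microglial markers a cell carried. These counts took in all cells outside the mast cell and non-myeloid gates, so the group with 0 markers includes monocytes, progenitors and ungated cells as well as macrophages. It held 383.7 CPM, and the values for 1 to 8 markers were 819.4, 1070, 1188, 1291, 1455, 1654, 1885 and 1878 CPM. Each step up to 7 markers was a rise in the pooled cells, and the last, with 101 cells, was level. Library 3 fell from 1265 to 1252 CPM between 5 and 6 markers and, like library 4, fell at the last step. The microglia gate at 6 markers therefore cuts a gradual range. The 638 cells of the microglia class at the gate's limit held 1665 CPM. All 843 cells 1 marker short of it, of any class, held 1416 CPM. Without the mast cell and non-myeloid gates that value was the 1455 CPM given above. A like gradient ran through the monocyte gate up to 2 macrophage markers. Monocytes with 0 high macrophage markers held 382.5 CPM of Csf1r (3499 cells), those with 1 held 484.4 CPM (457 cells) and those with 2 held 888.3 CPM (22 cells). The 2 monocytes with 3 or more held 599.9 CPM.

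The libraries differed in Csf1r in a repeated way. In 7 of the 8 classes with 50 or more cells in every library, libraries 1 and 2 both stood above libraries 3 and 4, mesenchymal cells being the exception. Library 2 was highest in 7 of the 8 classes and library 3 lowest in 6. Mast cells or basophils, 1 of the 7, held 26.3 Csf1r UMIs per 100 of complement C1qb, near the 26.4 of macrophages. Erythroid cells, with 49 cells in library 2, had the same order, at 109.4, 125.2, 27.49 and 40.65 CPM. The part of carried-over myeloid RNA in these orders was not tested. The ratio of the highest to the lowest library was 1.24 in macrophages, 1.39 in microglia, 1.46 in monocytes, 1.90 in progenitors and 2.56 in dendritic cells. Cx3cr1, the fractalkine receptor whose locus drives the other Cre line, had the opposite order in macrophages, with 334.4, 347.2, 675.4 and 612.2 CPM. The order was also opposite in microglia, with 694.6, 714.1, 1177 and 1170 CPM, and in Kupffer cells, with 146.7, 138.7, 267.7 and 255.4 CPM. The same held in monocytes (83.15, 79.56, 105 and 125 CPM) and progenitors (21.9, 21.04, 29.43 and 30.17 CPM). In mesenchymal cells both genes were higher in libraries 3 and 4, with Cx3cr1 at 53.63, 42.52, 98.92 and 121.9 CPM. In dendritic cells Cx3cr1 ran the same way as Csf1r, with 118.9, 104.1, 96 and 76.3 CPM. Mast cells gave a mixed order for Cx3cr1 of 161.6, 148.3, 177.9 and 157.8 CPM. Since the libraries have no labels, genotype, stage and library preparation cannot be told apart here. Libraries 3 and 4 also held most of the progenitors, neutrophils and mast cells. Progenitors numbered 69, 64, 434 and 756 in libraries 1 to 4, and B cells 0, 0, 66 and 103.

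The lineage reporter tdTomato, which marks cells descended from those that had active Cre, went with slightly more Csf1r in resident macrophages. Macrophages with a tdTomato UMI (3382 cells) held 1127 CPM and those without (2820 cells) held 1065 CPM, with the first higher in all 4 libraries. Microglia gave 1799 against 1689 CPM, also higher in all 4. Monocytes gave 389.7 against 401.6 CPM, and the direction differed between libraries. These differences are small beside those between classes, and a cell without a tdTomato UMI may still carry the reporter.

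Classes outside the monocyte and macrophage lineage also held Csf1r UMIs. Neural cells stood at 280.4 CPM (259.1 to 302.9), mesenchymal cells at 141.9 (134.7 to 149.5), endothelial cells at 86.4 (78.0 to 95.4), mast cells or basophils at 45.8 and erythroid cells at 44.7. These UMIs came together with complement C1qb, a gene of resident macrophages. For every 100 UMIs of C1qb, macrophages held 26.4 of Csf1r. The same ratio was 23.7 in mesenchymal cells, 23.8 in neural cells, 29.96 in endothelial cells, 26.3 in mast cells or basophils, 26.0 in erythroid cells, 24.3 in hepatocytes and 23.8 in epithelial cells. These pooled ratios lay between 23.7 and 29.96, while the Csf1r levels of the classes spanned 44.7 to 280.4 CPM. Neural cells varied between libraries, from 17.7 in library 3 to 43.3 in library 4. Kupffer cells stood at 19.3, and the 32 muscle cells at 18.4. The ratio was different in classes of the monocyte lineage, at 79.8 in monocytes, 100.5 in progenitors and 124.8 in osteoclasts, and lay at 40.4 in dendritic cells. B cells, with 162 Csf1r UMIs, stood apart from the other non-myeloid classes at 45.6. Osteoclasts ranged from 56.1 to 180.2 between libraries, with few cells in each.

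**Figure D2:**
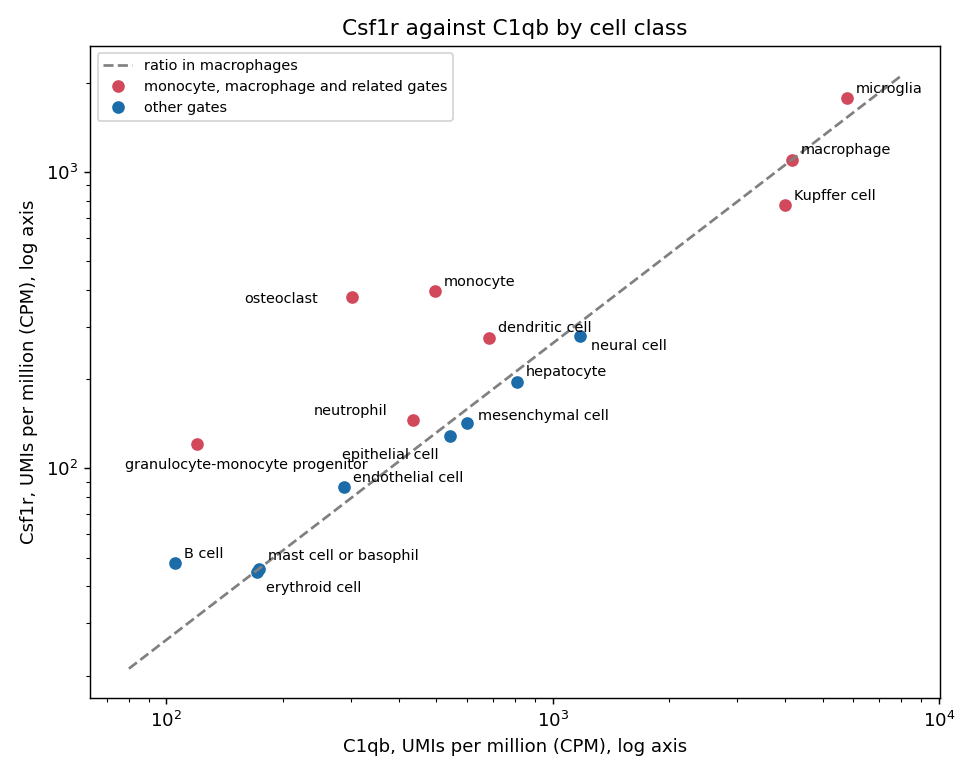
Csf1r against C1qb, both in CPM on log axes, with 1 point per cell class of at least 50 cells over pooled libraries. Mesenchymal, neural, endothelial, erythroid, mast, hepatocyte and epithelial classes lie near the dashed line of the macrophage ratio of 26.4 per 100, and monocytes, progenitors and osteoclasts lie above it.

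The Csf1r of the non-myeloid gates was concentrated in few cells. In mesenchymal cells, 83.7% of the Csf1r UMIs lay in the 95 cells with 5 or more of them, and 268 of the 847 cells had any. When cells with much RNA of C1qa, C1qb, C1qc, Tyrobp and Fcer1g were left out, Csf1r was 22.8 CPM (19.5 to 26.5) in the 687 remaining mesenchymal cells. It was 27.7 CPM in 248 endothelial cells and 23.7 CPM in 183 neural cells. C1qb remained at 81.3, 91.3 and 90.1 CPM in them. The filter genes move with Csf1r, so some fall follows from the selection itself. In the 696 erythroid cells left by the same filter, Csf1r was 10.5 CPM (9.21 to 11.98) and C1qb 35.6 CPM, and in 159 B cells Csf1r was 30.5 CPM (24.7 to 37.3). Droplets that passed both a myeloid and a neural gate (174 cells) held 908.6 CPM, and those that passed a myeloid and a mesenchymal gate (133 cells) held 641.2 CPM. The part of droplets with more than 1 cell in the Csf1r of the single gates was not tested.

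Csf1, the first of the ligands, was highest in microglia themselves. They held 75.8 CPM (71.4 to 80.3), with 78.7, 61.7, 71.0 and 91.4 CPM in libraries 1 to 4. Microglia were 3.54% of kept cells and held 36.0% of all Csf1 UMIs. The mesenchymal cells came next at 14.8 CPM (12.5 to 17.3), with 15.3, 17.6, 13.4 and 13.6 CPM. Endothelial cells held 8.53 CPM (6.03 to 11.7) from 38 UMIs. The library values of microglia lay above those of every other class with 50 cells in the library, and those of mesenchymal cells above those of macrophages in all 4.

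Macrophages outside the microglia gate held little Csf1, at 4.19 CPM (3.77 to 4.66) with a library range of 3.38 to 5.16. Microglia held 18.1 times as much as macrophages and 5.13 times as much as mesenchymal cells, and mesenchymal cells 3.52 times as much as macrophages. The log2(CPM + 1) difference between microglia and macrophages was 3.89, with 4.19, 3.73, 3.59 and 3.91 in the libraries. That between mesenchymal cells and macrophages was 1.60, with 1.90, 1.97, 1.27 and 1.24. Some other classes were lower still. Kupffer cells held 1.74 CPM, monocytes 0.996 CPM, progenitors 0.890 CPM and erythroid cells 0.286 CPM. Mast cells or basophils, at 5.20 CPM (4.41 to 6.10), stood near macrophages. Osteoclasts gave 5.64 CPM from 13 UMIs, of which 9 came from 1 cell.

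**Figure D3:**
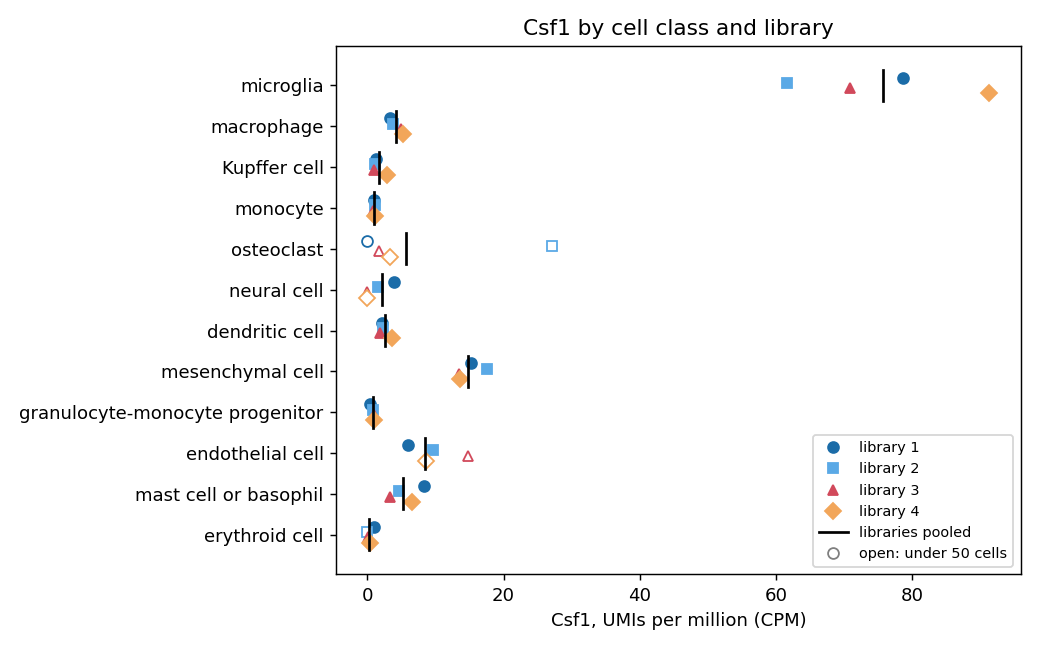
Csf1 in CPM (linear axis) for the same classes, with 1 point per library, open where it held under 50 cells of the class, and a black line for the pooled cells. The 4 libraries of microglia lie between 61.7 and 91.4 CPM, and mesenchymal cells lie between 13.4 and 17.6 CPM.

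Csf1 was patchy among microglia. A UMI was found in 345 of 1224 cells (28.2%), with library shares of 26.0%, 25.8%, 30.6% and 32.4%. At 2000 UMIs per cell the share was 10.4% (8.74 to 12.2), against 3.20% in mesenchymal cells (2.102 to 4.657), 1.47% in endothelial cells, 0.636% in macrophages and 0.130% in erythroid cells. Of the 345 cells, 148 had a single UMI. The 69 cells with 5 or more held 56.0% of the microglial Csf1, and the highest cell had 32. All 345 cells also held Csf1r, as did all microglia, so the ligand and its receptor were found in the same droplets. Csf1r stood at 1640 CPM in microglia with Csf1 and at 1840 CPM in those without, whose median depths were 12206 and 10115 UMIs.

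Csf1 was also higher the more microglial markers a cell carried. In the same cells with 0 to 8 high markers it stood at 1.42, 2.63, 5.70, 10.7, 12.2, 28.7, 70.9, 80.7 and 81.4 CPM. The share of cells with a Csf1 UMI went from 1.65% at 0 markers to 14.3% at 5, 22.5% at 6 and 35.6% at 8. The largest step of the pooled cells was between 5 and 6 markers, and it was a rise in each library. In library 4 the step from 6 to 7 markers was larger still (70.8 to 116.2 CPM), whereas libraries 1 and 3 fell there, from 88.6 to 64.8 and from 73.5 to 66.4 CPM. The gate's limit lies at that step, so the pooled microglial value moves with it. With 3 of 8 markers required, microglia held 36.0 CPM.

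**Figure D4:**
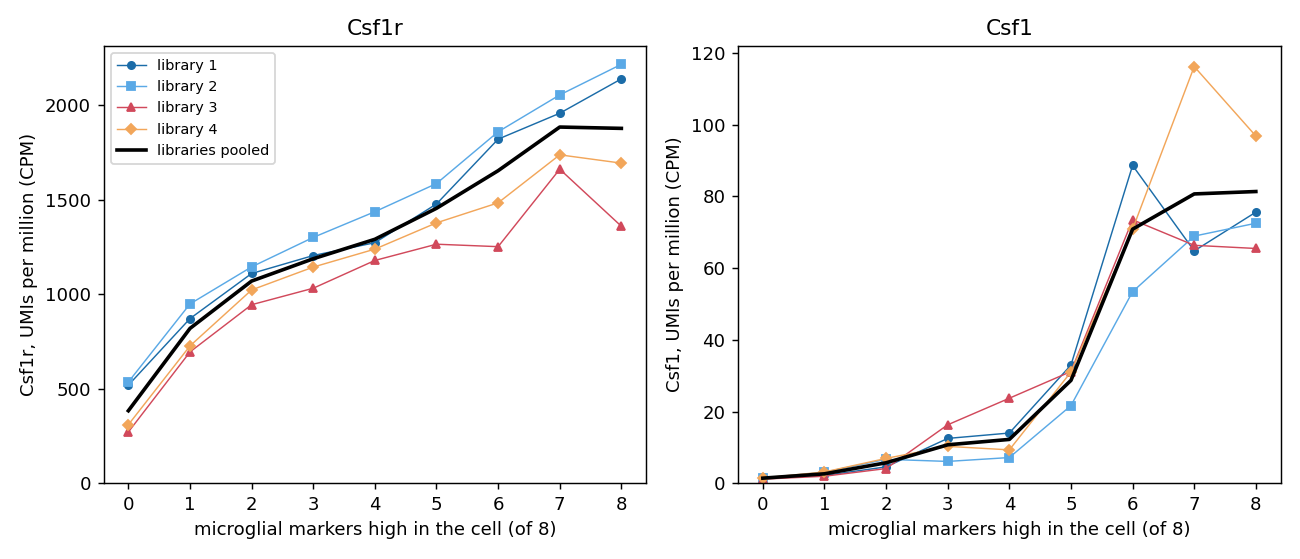
Csf1r (left) and Csf1 (right) in CPM against the number of microglial markers, from 0 to 8, that were high in a cell, leaving out cells of mast cell and non-myeloid gates, with 1 line per library and a thick black line for the pooled cells. In the pooled cells Csf1r climbs up to 7 markers, and Csf1 stays at or below 12.2 CPM up to 4 markers and reaches 70.9 CPM at 6.

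Microglia with 2 or more Csf1 UMIs (197 cells) were set beside those with none (879 cells). This contrast was chosen after the data were seen, and it describes genes by their pooled levels. Fabp5, a fatty acid carrier, stood at 868.7 against 227.1 CPM. Ccl4, a chemokine, stood at 2358 against 1154 CPM, and Ccl3 at 2345 against 1339 CPM. Phgdh, the first enzyme of serine synthesis, stood at 258.2 against 125.3 CPM. Each was higher in the cells with Csf1 in all 4 libraries. Other genes were lower in them in all 4 libraries. Cd74, the invariant chain of class II molecules, stood at 41.5 against 137.7 CPM, although it was found in 36.6% of these cells against 31.5% of the others. Ms4a7, a marker of the macrophage gate, stood at 172.3 against 427.7 CPM.

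Some Csf1 lay outside the gates. The 14089 ungated cells held 31.2% of the Csf1 UMIs at a level of 4.63 CPM. Ungated cells with 2 or more Csf1 UMIs (150 cells) held 4544 CPM of Spp1, the matrix protein osteopontin, and those with none (13592 cells) held 117.5 CPM. The first group also held more Il1rn (162.6 against 7.45 CPM) and Gpnmb (208.4 against 21.1). Split the other way, ungated cells above 1000 CPM of Spp1 (533 cells) held 42.0 CPM of Csf1 (37.1 to 47.3), with 60.9, 35.2, 31.0 and 34.8 CPM in the libraries. Those without Spp1 held 3.08 CPM. In macrophages the same strata held 12.3 and 3.45 CPM. In microglia they held 156 (101 cells) and 66.3 CPM, but library 3, with 13 such cells, gave 44.9 CPM against 81.7 without Spp1.

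**Figure D5:**
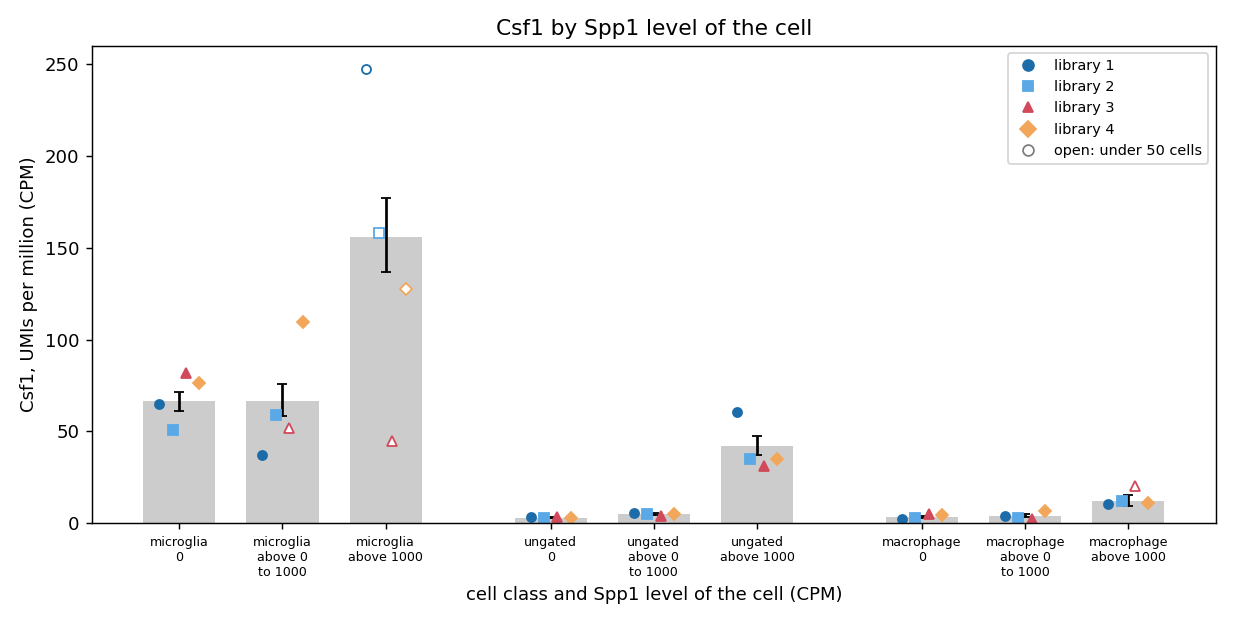
Csf1 in CPM for microglia, ungated cells and macrophages, split by the Spp1 level of the cell (0, above 0 to 1000, above 1000 CPM). Bars are pooled values that start at 0, error bars are 95% Poisson intervals, and points are libraries, open under 50 cells. The ungated cells above 1000 CPM of Spp1 reach 42.0 CPM, and in microglia library 3 goes against the other libraries.

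Among mesenchymal cells, Csf1 was found in 117 of 847. Unlike Csf1r, it did not fall when cells with much myeloid RNA were left out, standing at 17.2 CPM (14.3 to 20.4) in the 687 remaining cells. Endothelial cells kept 9.04 CPM in this way, and the 183 neural cells had 0 UMIs, which allows up to 2.29 CPM (3 UMIs over these cells). Mesenchymal cells with Csf1 held more Apod (135.5 against 53.6 CPM), Zic1 (89.3 against 33.5), Akap12 (291.2 against 124.6) and Lox, a collagen cross-linking enzyme (175.2 against 77.3). Each of the 4 was higher in all 4 libraries. Their median depth was 13992 UMIs against 9991 in those without, and the part of depth in this contrast was not tested.

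Il34 was scarce, and most of it was mesenchymal. Of its 52 UMIs in kept cells, 28 lay in mesenchymal cells (53.9%), 12 in ungated cells, 5 in mixed cells, 3 in endothelial cells, 2 in epithelial cells and 1 each in macrophages and monocytes. The mesenchymal level was 2.78 CPM (1.84 to 4.01), from 9, 4, 6 and 9 UMIs in libraries 1 to 4, or 2.41, 2.70, 3.23 and 2.98 CPM. All 4 libraries had it at about the same level. It was found in 20 of 847 cells (2.36%), of which 15 had 1 UMI, 4 had 2 and 1 had 5. At 2000 UMIs per cell, 5 of 812 cells (0.616%, 0.200 to 1.43) had a UMI, against 0 of 772 erythroid cells, which allows a share of up to 0.389%. The mesenchymal interval starts below that limit, so at this depth the shares were not separated.

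No Il34 was seen in neural cells. The 268 cells of that gate held 0 UMIs, which allows up to 1.30 CPM (3 UMIs over the class), so the mesenchymal point estimate was at least 2.13-fold higher, and the lower end of its interval, 1.84 CPM, also lay above that limit. The neural cells were shallow, with a median of 7038 UMIs, and held 1176 CPM of C1qb. The 183 neural cells without much myeloid RNA allow up to 2.29 CPM of Il34, which is above that 1.84 CPM. Mesenchymal cells left by the same filter held 3.62 CPM (2.38 to 5.26). In each library the upper interval end of neural cells (3.61, 5.805, 11.95 and 11.02 CPM) exceeded the mesenchymal level, so single libraries did not separate them. Microglia held 0 UMIs in 1224 cells, which allows up to 0.203 CPM. The mesenchymal point estimate over all 847 cells was at least 13.7-fold higher than that limit. Kupffer cells, osteoclasts, progenitors, mast cells and erythroid cells also had 0 UMIs. In epithelial cells, which are gated on keratins, 2 of 97 cells had 1 UMI each, or 0.925 CPM (0.112 to 3.34).

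The genes that went with Il34 in mesenchymal cells rest on 20 cells and describe these alone. Zic1, a transcription factor gene, was found in 12 of the 20 and stood at 188.5 CPM against 39.8 in the 827 cells without Il34. Wnt6 was found in 9 of the 20, at 77.8 against 11.0 CPM, and both genes were higher in all 4 libraries. Vtn, the adhesion protein vitronectin, stood at 753.8 against 32.2 CPM but was found in 6 cells only. Sfrp2, a secreted WNT antagonist, was lower at 90.1 against 516.7 CPM. Both ligands were found together in 5 mesenchymal cells. Zic1 was among the genes higher with either ligand.

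The other genes of the pathway came from 8 lists of 68 members in all, described by how many stood at least 2-fold apart on the log2(CPM + 10) scale among genes with at least 20 CPM in either class. Between microglia and macrophages, 42 members passed that filter and 3 were higher in microglia (7.14%), against a background of 3.24% over all genes, and 1 was lower (2.38%), against 1.84%. The higher ones included Trem2, a lipid receptor that signals through the adaptor TYROBP (1236 against 479 CPM), and the G-CSF receptor Csf3r (66.4 against 14.0 CPM). Dok2, an adaptor that restrains kinase signalling, was lower (60.0 against 200.4 CPM). Spi1, which encodes PU.1, the main activator of the Csf1r gene, stood at 588.5 against 538.2 CPM, and none of the 14 signal transducers past the filter was 2-fold apart. The members' median log2 difference was 0.23, and that of all genes was -0.07.

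Between macrophages and monocytes, 7 of 41 members were higher in macrophages (17.1%, background 8.38%) and 6 lower (14.6%, background 5.85%). Genes that CSF1 induces in macrophages made up 5 of the 7. They were the cyclin Ccnd1 (146.6 against 41.0 CPM), Egr1 (301.2 against 135.9), the ERK phosphatase Dusp6 (153.5 against 54.9), Spred1 (35.1 against 9.69) and Etv5 (33.5 against 7.43), each higher in all 4 libraries. This list's median difference was 1.14 over 8 members, against -0.01 for all genes. Maf stood at 605.4 against 89.97 CPM and Trem2 at 479 against 160.7 CPM. Lower in macrophages were receptors of other colony-stimulating factors, with Csf2ra at 80 against 208.2 CPM, Csf2rb at 47.0 against 142.9 and Csf3r at 14.0 against 53.9. The phospholipase gene Plcg2 was lower too, at 23.8 against 76.2 CPM. Over all lists the median difference was -0.13.

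Between osteoclasts and macrophages, 6 of 46 members were higher in osteoclasts (13%, background 7.59%) and 21 lower (45.7%, background 12.7%). Src, the kinase that osteoclasts need for their ruffled border, stood at 76.7 against 1.62 CPM, and Itgav, a chain of their vitronectin receptor, at 113.2 against 12.01 CPM. Sdc1, a syndecan that also binds IL-34, stood at 35.6 against 1.28 CPM. Of the transcription factors that act at the Csf1r gene, 6 of 8 were lower, among them Maf (47.3 against 605.4 CPM), Irf8 (36.9 against 216.3) and Runx1 (38.6 against 93.5). Spi1 was not among them, at 828 against 538.2 CPM and higher in all 4 libraries. Of the CSF1-induced genes, 7 of 9 were lower, including Egr1 (41.2 against 301.2 CPM) and Dusp6 (23.0 against 153.5), and Spred1 was higher (94.5 against 35.1). Ets2, at 9.10 against 35.3 CPM, belongs to both lists and counts as lower in each. The median over members was -0.77, against 0.04 for all genes, in a comparison that rests on 85 osteoclasts.

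Between mesenchymal cells and macrophages, 5 of 45 members were higher in mesenchymal cells (11.1%, background 16.4%) and 18 lower (40%, background 10.7%). The higher ones were 2 receptor kinases of the family of CSF1R, Pdgfra (76.6 against 0.334 CPM) and Pdgfrb (46.4 against 0.286), with the KIT ligand Kitl (26.8 against 4.05), Sdc1 (127.3 against 1.28) and Spry2 (35.9 against 2.55). The lower ones included Tyrobp (439.2 against 2466 CPM) and Spi1 (103.4 against 538.2), in a class that holds the myeloid RNA described above. The members' median difference was -0.91, and that of all genes was 0.21. Kit and Flt3, of the same receptor family, did not reach 20 CPM in either class. Ptprz1, the receptor phosphatase that binds IL-34 on neural cells, stood at 7.43 CPM in mesenchymal cells and 0.238 in macrophages.

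Genes with a pattern like that of the members were sought over 43 sums of class and library from 13 classes, among 11590 genes. The sums share libraries and differ in depth, so the correlations are descriptions. Closest to Csf1r were the lysosomal gene Cd68 (Pearson r = 0.973, Spearman rho = 0.970), Ctsa (0.972 and 0.971), the nucleotide receptor P2ry6 (0.970 and 0.965), Adgre1, which encodes F4/80 (0.968 and 0.952), and Grn, which encodes progranulin (0.966 and 0.953). Cd68 stood at 539.5 CPM in microglia and 565.8 in macrophages, so its likeness lies in the other classes. Closest to Csf1 were Plxdc2 (0.909 and 0.806), Npnt (0.887 and 0.665), Olfml3 (0.887 and 0.796), Spsb1 (0.887 and 0.729) and Serpine2 (0.878 and 0.784). Plxdc2 stood at 207 CPM in microglia and 11.3 in macrophages, and Serpine2 at 539.6 and 5.66. Olfml3 was a marker of the microglia gate. Il34 had too few UMIs for this comparison.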

How the data were processed

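Droplet-based 3′ single-cell libraries (10x Genomics) were made from the cells, per the labels' protocols. The deposited values are raw UMI counts per gene and barcode, with software version 3.0.1 given per the file headers. Cell Ranger 2.1.1 and genome mm10 are listed in the submitters' processing notes. Positions came from GENCODE M21 (GRCm38). Barcodes under 1000 UMIs or 500 genes or over 10% mitochondrial were removed (4461). A marker was high in a cell at 2 or more UMIs and at least 2 times its mean share over all cells, and 19680 cells (56.9%) passed a gate. No doublet caller was run. Cells that passed gates of different compartments (669) or tied (149) were left out instead. The members, markers and lists were chosen with earlier results of these data known, and the gate rule was set after depth and marker levels were seen, without the members.

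Counts were summed per class and library and divided by all UMIs (CPM), with exact Poisson and Clopper-Pearson 95% intervals for counting error only. Zero counts carry the limit that 3 UMIs allow. Differences used log2(CPM + 10), or log2(CPM + 1) for the ligands, which understates those of low genes. Cells were thinned to 2000 UMIs at random with a fixed seed, leaving out shallower ones (74 macrophages, 14 monocytes, 35 mesenchymal cells). Cells counted as holding much myeloid RNA had over 1528 CPM of the 5 myeloid genes, which is 2 times the erythroid level of 764.1 CPM. The planned comparison of driver lines and of embryo with adult marrow was not made, as cells could not be assigned to samples. The text names the 3 members, though not each in every class, and gives no member value for neutrophils. It names list members at least 2-fold apart, up to 4 of the most abundant per list, with others whose role the text needs. The 5 genes most like each member with 500 or more UMIs are named too. The values of some genes counted in the lists are not reported here. Genes set beside the ligands within a class were chosen after the data were seen. Python 3.11.15, numpy 2.4.6, scipy 1.17.1, scanpy 1.11.5 and python-igraph 0.11.9 were used. Differences on the log2(CPM + 10) scale were tested on simulated pooled counts with Poisson error only. That simulation covers neither the log2(CPM + 1) differences of the ligands nor the spread between cells.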

Additional observations from a re-analysis of the deposited data

How the results depend on the processing

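The alternatives were a stricter cell filter, 1 more marker in every gate, Leiden clusters in place of gates, a mean over cells, cells without genes of other classes, other pseudocounts and leaving out each library. With a microglia gate at 3 of 8 markers (chosen after seeing the data), they gave 109 values of 10 levels or log2 differences, of which 96 stayed within 1 SD of the library values, 13 moved further and 0 reversed. Leaving out 1 library at a time moved none of the 10 that far. The SD comes from the same library values, so a larger move was hardly possible and this is no support. The 96 also include the Il34 level of neural cells, which was 0 in every setting. The 3-marker gate gave a Csf1r difference between microglia and macrophages of 0.41, and for Csf1 36.0 CPM in microglia and a difference of 3.04. Clusters gave 98.1 CPM of Csf1 in microglia, 1.09 for Csf1 in mesenchymal cells against macrophages, and -1.69 for Il34 in neural against mesenchymal cells, which was -1.92 with gates. That Il34 value, which rests on a class at 0, was -2.29 as a mean over cells, -2.21 without genes of other classes, -0.35 with a pseudocount of 10 and -4.85 with 0.1. Cells without genes of other classes gave 17.2 CPM of Csf1 in mesenchymal cells. A pseudocount of 10 gave Csf1 differences of 0.80 (mesenchymal) and 2.60 (microglia) against macrophages. List members apart fell at 4-fold from 4 to 0 (microglia), 13 to 1 (monocytes), 27 to 10 (osteoclasts) and 23 to 11 (mesenchymal cells), and at 100 CPM to 13 and 12 for the last pair. Beyond the construction of an alternative, the cause was not tested. Detection at 5000 UMIs was 98.8% for Csf1r in macrophages and 19.8% for Csf1 in microglia. Il34 rests on 52 UMIs in all. No paired analysis was possible because no barcode could be assigned to a numbered sample, and class differences within each library stand in the report instead.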
